A study of Rattus norvegicus with 32 samples.

Results

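The genes described here lie on the proximal end of rat chromosome 20, the stretch that holds the rat major histocompatibility complex (MHC), called RT1. They were taken by position alone, as every gene whose first listed chromosome was 20 and whose smallest start lay under 8000000 in the rn5 assembly, and 292 of the 26404 genes listed met that rule. Of these 292 genes, 139 had 10 or more counts in at least 6 libraries and are the members described, out of 14819 genes in the whole table that passed the same filter. Of the other 153, 75 had no count in any library used and 78 had counts below the filter.

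The MHC encodes cell-surface proteins that show peptides to T cells. Class I molecules, made by nearly all nucleated cells, present peptides from proteins made inside the cell, and class II molecules, made mainly by antigen-presenting cells, present peptides from proteins taken up from outside. The region also holds genes for peptide processing, for complement and for functions unrelated to immunity. It is among the most polymorphic stretches of mammalian genomes, with class I gene copies that differ in number and sequence between strains. The rn5 assembly was built from Brown Norway rats, a strain that is not among those sequenced here.

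Renal cortical RNA was sequenced from 4 groups of male rats, all labelled as aged 37 weeks. SD rats were Sprague Dawley controls. The other groups belonged to the ZDSD strain (Zucker Diabetic Sprague Dawley), which was derived in part from Sprague Dawley rats and becomes obese and diabetic. SD and ZDSD rats were kept on the same chow. SHAM rats had a sham laparotomy, RYGB rats had Roux-en-Y gastric bypass, and RYGB-FMRR rats had the bypass followed by fenofibrate, metformin, ramipril and rosuvastatin in their chow. Some rats died during or after bypass, so both bypass groups hold survivors only. ZDSD rats of all groups were given insulin for a short time before surgery, and the study's methods place the operations at different ages in the 3 groups. Strain, diabetes, surgery and care therefore moved together between SD and ZDSD rats and cannot be told apart, and no other strain was sequenced.

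The data of 6 SD, 7 SHAM, 9 RYGB and 7 RYGB-FMRR rats were used, each a separate rat with 1 library. Total counts per library ranged from 14502127 to 27597901, and 2 SHAM libraries with totals of 121511 and 101534 were left out. Levels are given as CPM, a gene's counts per 1000000 counts of its library after TMM scaling. A gene was called in a comparison when edgeR's quasi-likelihood test gave a Benjamini-Hochberg adjusted p under 0.05 over all 14819 genes and the fold change was at least 1.3, which is 0.379 on the log2 scale. The table lists genes by Ensembl identifier only, and none of these identifiers could be paired with a symbol. The RT1 genes could therefore not be picked out among the members, cell type markers were not examined, and members are given by identifier and position. In bulk cortex, fewer cells of a type and less RNA per cell cannot be told apart. A read from an allele that differs from the reference can fail to map or map to a near-identical copy. In every comparison below, a difference in RNA level and a difference in mapping therefore cannot be told apart. This holds between strains, between groups of ZDSD rats and between rats within a group.

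Members were spread unevenly along the stretch. Of the 41 genes in the first Mb, 5 were described, and 28 had a single exon record. Between 1 and 2 Mb, 0 of 20 were described, and no member started between 2 and 3 Mb. Between 3 and 4 Mb, 5 of 29 were described, and between 4 and 5 Mb, 9 of 32. Beyond 5 Mb the cortex expressed most of what was listed, with 36 of 53 members described between 5 and 6 Mb, 43 of 56 between 6 and 7 Mb, and 41 of 61 between 7 and 8 Mb. Described members thus lay mainly in the distal part of the stretch. They had a median exonic length of 1587 bp, compared with 939 bp for members that were not described. A single exon record was listed for 5 of the 139 described members and for 63 of the 153 others.

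Per length, the described members covered a wide range of levels in the cortex. The median over all rats, as FPKM (CPM divided by exonic length in kilobases) computed from the counts, ranged from 0.0965 to 838 with a middle value of 11.3. Only 4 members exceeded 100 FPKM and 16 lay under 1 FPKM. Of the 139, 125 had 10 or more counts in all 29 libraries. Over all 292 genes, the members took 0.553 to 0.781% of the counts of a library. The median share was 0.605% for SD rats, 0.653% for SHAM rats, 0.661% after RYGB and 0.623% after RYGB-FMRR, and the group ranges overlapped.

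The first comparison asked which members differed between ZDSD rats, whatever their operation, and SD rats. It called 23 of the 139 members (16.5%), compared with 17.3% of all genes tested and 20.8% of the 293 genes tested on the rest of chromosome 20. Of the 23, 12 were higher in ZDSD rats, where 8.88% of all genes were called higher, and 11 were lower, where 8.46% were called lower. The median log2 fold change over the members was 0.07, beside 0.01 over all genes. The share of members called was therefore close to the background. Across the individual chromosomes, the share called ran from 12.1% to 21.6%. Higher members that were called rose by 0.40 to 1.38 on the log2 scale, and the lower ones had log2 fold changes from -1.95 to -0.40.

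**Figure D1:**
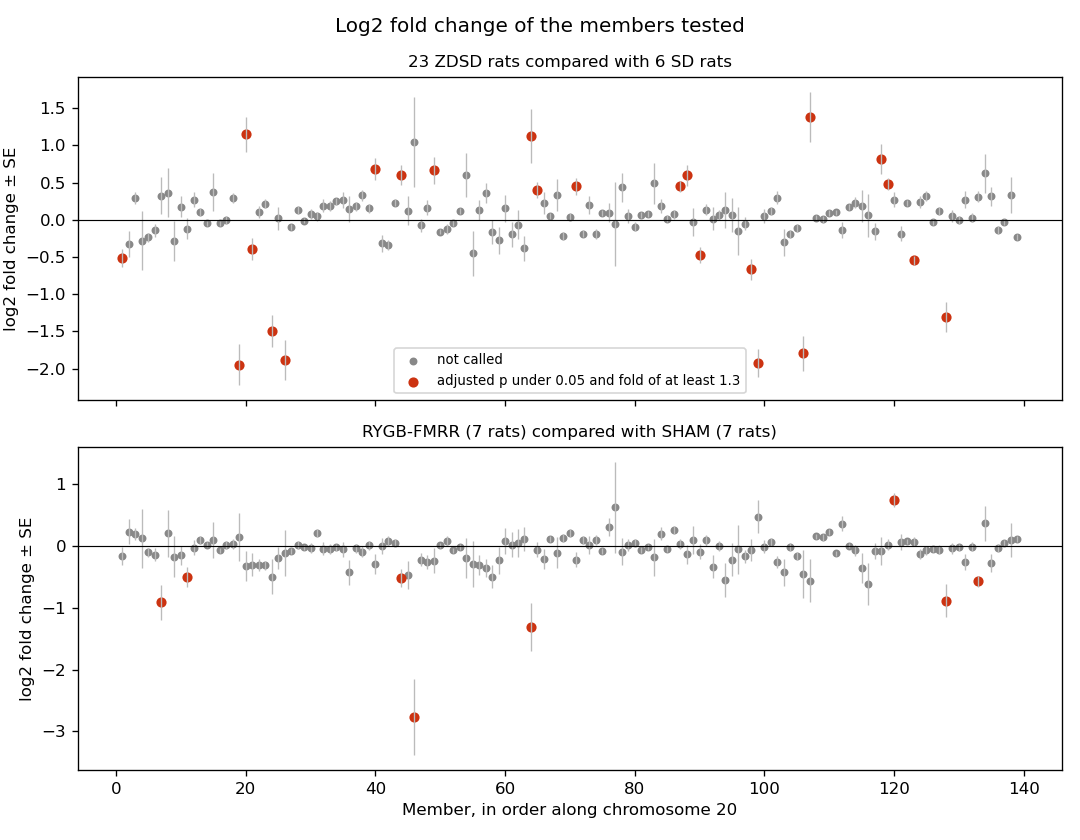
Log2 fold change (vertical axis, bars are the standard error) of the 139 members in their order along chromosome 20 (horizontal axis), for ZDSD vs SD (upper panel) and RYGB-FMRR vs SHAM (lower panel). Red points are called members and grey points are not, and the 23 members called in ZDSD vs SD lie on both sides of 0 and are spread along the order.

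None of the 139 described members separated the strains completely. For 0 of the 139 members did the 6 SD rats and the 23 ZDSD rats not overlap, beside 2.85% of all genes tested. Among the 12 members called higher in ZDSD rats, 6 had 1 SD rat inside the ZDSD range and the other 6 had 2. Among the 11 called lower, 4 had 1 SD rat inside the ZDSD range, 2 had 2, 1 had 3, 2 had 4 and 1 had 5. The remaining member had 5 SD rats above the ZDSD range and 1 below it.

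Members with the smallest adjusted p in each direction differed mainly by modest or low-level shifts. ENSRNOG00000000470, on the minus strand of chromosome 20 from 7490618 to 7500200, had a lowest, median and highest CPM of 57.6, 78.8 and 98.5 in SD rats and 89.2, 105 and 122 in ZDSD rats. It was 0.48 ± 0.08 (SE) higher in ZDSD rats on the log2 scale, with an adjusted p of 1.44e-05 by edgeR's quasi-likelihood test. Most SD rats lay under every ZDSD rat. ENSRNOG00000032942, on the plus strand from 6690982 to 6695245, ran from 107 through a median of 128 to 140 CPM in SD rats and from 138 through 176 to 206 CPM in ZDSD rats. Its log2 fold change was 0.45 ± 0.07 (SE), with an adjusted p of 2.27e-05 by the same edgeR test. The ranges met only at their edges.

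Lower in ZDSD rats was ENSRNOG00000031607, on the minus strand from 7008109 to 7019717. Its CPM ran from 0.991 through a median of 2.64 to 3.90 in SD rats and from 0.407 through 0.633 to 1.43 in ZDSD rats, a log2 fold change of -1.92 ± 0.19 (SE) with an adjusted p of 5.77e-09 in edgeR. It was a gene of low count, with 10 or more counts in 27 of the 29 libraries. ENSRNOG00000000473, on the plus strand from 7514596 to 7516060, ran from 28.7 through 35.0 to 47.2 CPM in SD rats and from 20.8 through 24.5 to 28.7 CPM in ZDSD rats. Its log2 fold change was -0.54 ± 0.06 (SE), with an adjusted p of 6.83e-08 in edgeR. The lowest SD rat and the highest ZDSD rat were almost level.

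**Figure D2:**
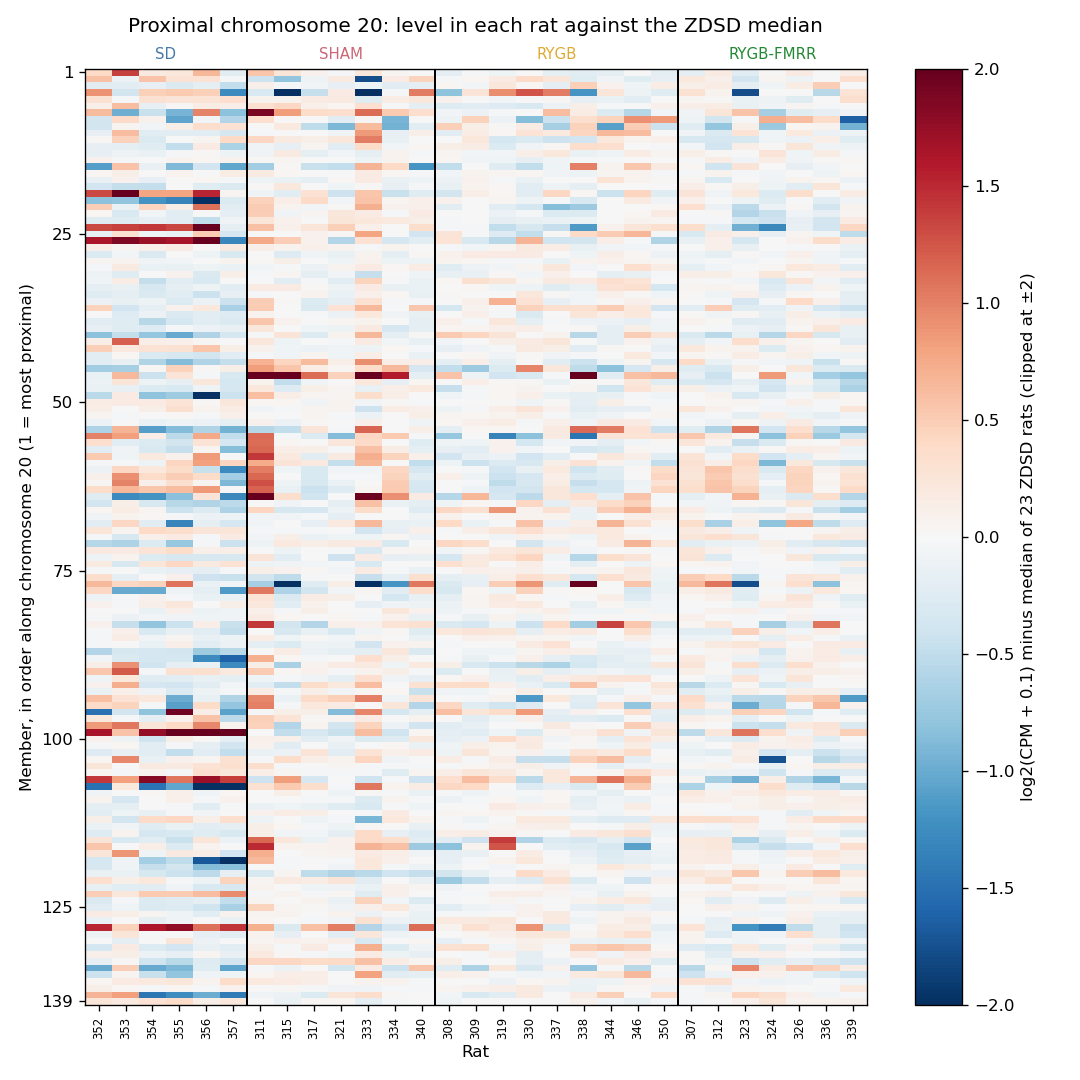
Level of each of the 139 members (rows, in order along chromosome 20) in each of 29 rats (columns, by group) as log2(CPM + 0.1) minus the median of the 23 ZDSD rats, with the colour scale clipped at 2 log2 units. Strong colours sit mostly in the 6 SD columns, where they differ from rat to rat, and in SHAM rats 311 and 333, with scattered cells in the RYGB and RYGB-FMRR rats.

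SD rats differed among themselves over these genes more than they did elsewhere. Here, and in the rat-by-rat measure that follows, CPM was taken from total counts without TMM scaling. The spread was measured as the standard deviation (SD of values, not the strain) of log2(CPM + 0.1) within a group, for the 131 members with a mean of at least 1 CPM. Among Sprague Dawley rats it exceeded 0.5 in 25 of 131 members (19.1%), beside 5.88% of 272 genes on the rest of chromosome 20 and 5.64% of all 13511 genes. It exceeded 1 in 7 members (5.34%), beside 0.718% of all genes. The share over 0.5 was 13.0% in SHAM rats (7.62% of all genes), 4.58% in RYGB rats (4.22%) and 7.63% in RYGB-FMRR rats (4.08%). These shares are descriptions without a test, and neighbouring genes of 1 rat are not independent. Differences in RNA level and in mapping between rats of a group cannot be told apart here either.

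Taking each rat against the median of the rest of its group, rats differed in how many members lay far off. SD rat 353 was at least 1 log2 unit away in 12 of 131 members (9.16%), beside 1.74% of all genes, and it was the higher one in 10 of these. SD rat 357 was away in 12 members, lower in all 12, beside 1.64% of all genes. SD rat 356 was away in 9 members (6.87%), beside 1.16% of all genes. SD rats 352 and 355 were away in 4 members each (3.05%), beside 1.21% and 1.78% of all genes, and SD rat 354 in 0, beside 0.711%. Among ZDSD rats, SHAM rat 311 was away in 12 members, higher in all 12 (1.92% of all genes), and SHAM rat 333 in 11 (8.40%), beside 4.70% of all genes. RYGB rats were away in at most 5 members (rat 338, 3.82% beside 1.6% of all genes), and RYGB-FMRR rats in at most 4.

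**Figure D3:**
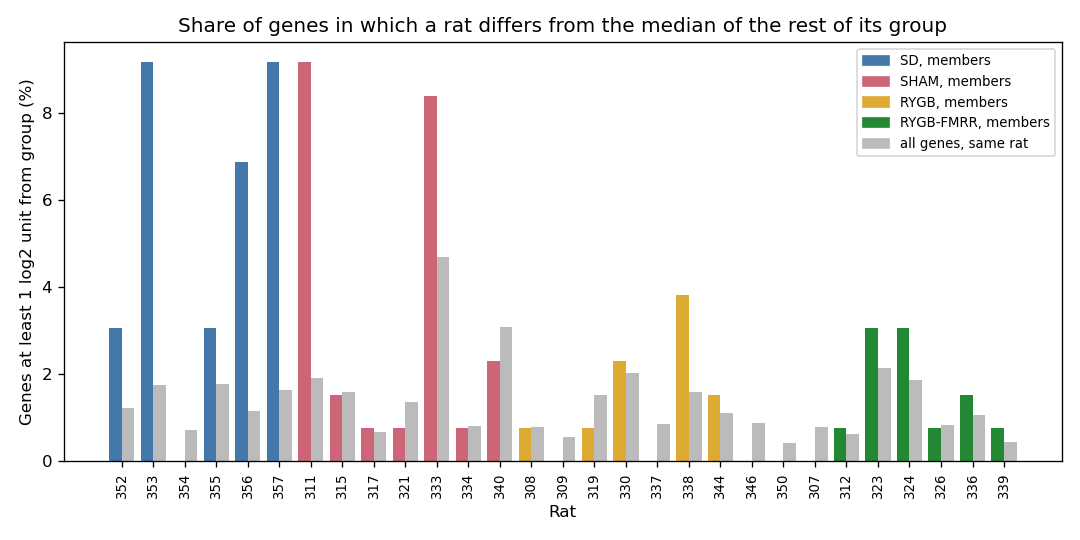
Percentage of genes in which a rat (horizontal axis, 29 rats by group) lay at least 1 log2 unit from the median of the rest of its group, for the 131 members (coloured bars) and for all genes (grey bars). CPM was not TMM-scaled here. SD rats 353, 356 and 357 and SHAM rats 311 and 333 have the highest percentages for the members, from 6.87% to 9.16%.

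A number of members in which single SD rats lay far from the rest are given rat by rat, and they were chosen after their values were seen. In ENSRNOG00000048951, on the minus strand from 4805694 to 4808439, SD rats 352 to 357 had 4.89, 25.5, 3.36, 3.37, 5.64 and 1.99 CPM, in that order. ZDSD rats ran from 1.38 through a median of 1.90 to 2.85 CPM, and the log2 fold change was -1.95 ± 0.28 (SE), with an adjusted p of 3.61e-06 by edgeR's quasi-likelihood test. Rat 353 stood far above the rest, and rat 357 lay inside the ZDSD range.

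A further 4 such members lay more distally. ENSRNOG00000026051, on the plus strand from 5236559 to 5238631, had 4.09, 4.17, 3.14, 2.81, 0.241 and 6.01 CPM in SD rats 352 to 357. In ZDSD rats it ran from 5.85 through 7.29 to 10.8 CPM, 1.15 ± 0.24 (SE) higher on the log2 scale with an adjusted p of 0.000325 in edgeR. Rat 356 was close to 0, and rat 357 reached the level of the ZDSD rats. ENSRNOG00000045924, on the plus strand from 5324557 to 5331860, had 10.04, 10.3, 10.7, 10.1, 21.2 and 3.46 CPM in the same order. ZDSD rats had 1.56 to 5.97 CPM with a median of 3.95, a log2 fold change of -1.50 ± 0.21 (SE) and an adjusted p of 3.1e-06 in edgeR. Here 4 SD rats were nearly level, rat 356 was about double their value and rat 357 was inside the ZDSD range.

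ENSRNOG00000032596, on the plus strand from 5367481 to 5380689, had the same highest and lowest SD rats. It had 2.62, 3.10, 2.80, 2.66, 6.36 and 0.255 CPM in SD rats 352 to 357, and 0.480 to 1.38 CPM with a median of 0.780 in ZDSD rats (log2 fold change -1.88 ± 0.26 SE, adjusted p 2.65e-06 in edgeR). Rat 356 was the highest and rat 357, at 5 counts, the lowest of all 29 rats. ENSRNOG00000047706, on the minus strand from 5857674 to 5878729, had 67.0, 110, 56.2, 59.8, 14.6 and 72.3 CPM in SD rats. ZDSD rats had 78.9 to 149 CPM with a median of 97.7, and the log2 fold change was 0.66 ± 0.18 (SE) with an adjusted p of 0.00511 in edgeR. Rat 356 was low and rat 353 was within the ZDSD range.

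**Figure D4:**
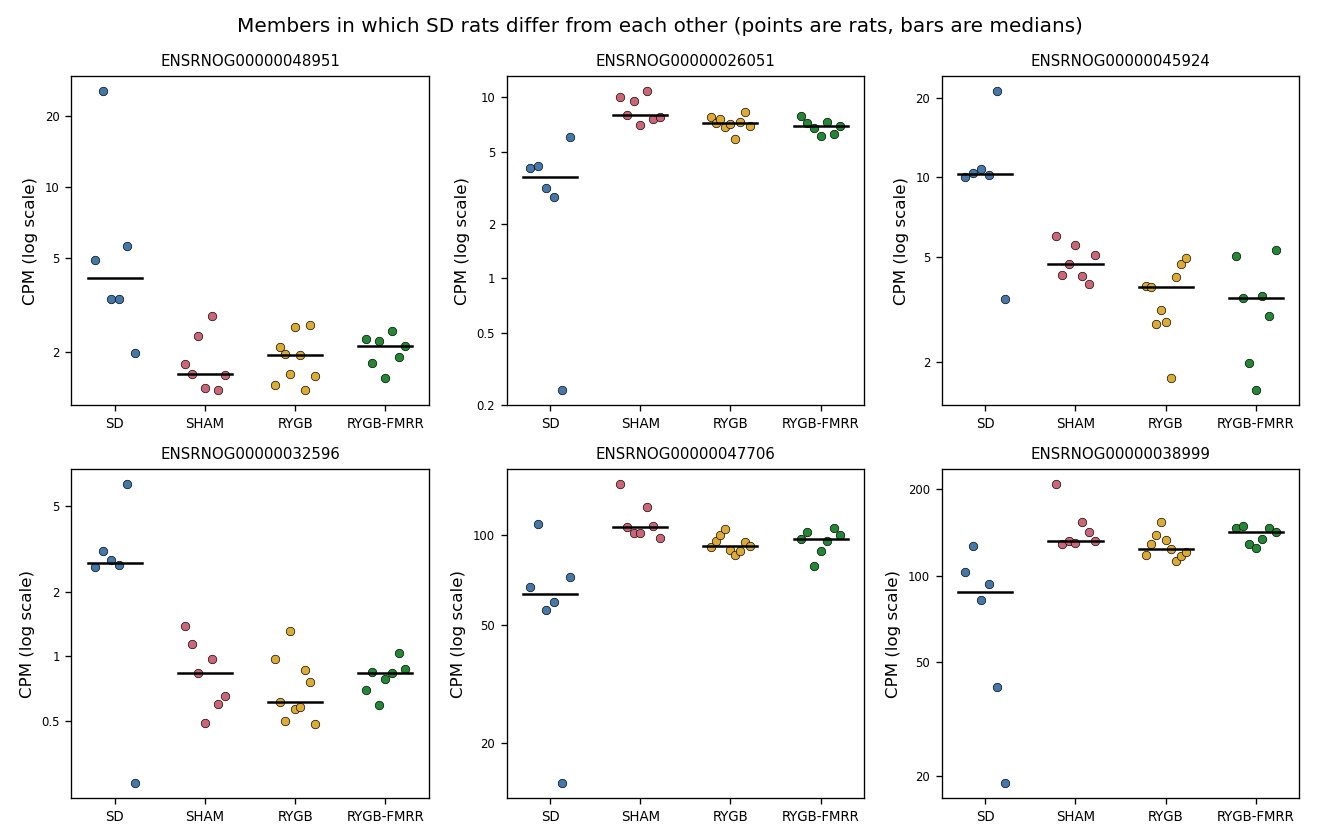
CPM (log scale) of 6 members in each rat, by group, with points for rats and bars for group medians. In each panel 1 or 2 of the 6 SD rats lie far from the rest, such as 0.241 CPM in rat 356 for ENSRNOG00000026051, while the ZDSD groups are narrower.

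Other such members lay further along. ENSRNOG00000027157, on the plus strand from 7140226 to 7141962, had 1.69, 5.70, 1.70, 2.34, 0.290 and 0.204 CPM in SD rats 352 to 357, and 3.14 to 10.4 CPM with a median of 4.91 in ZDSD rats. Its log2 fold change was 1.38 ± 0.34 (SE), with an adjusted p of 0.00175 in edgeR. ENSRNOG00000038999, on the plus strand from 7474639 to 7478155, had 103, 127, 82.4, 93.6, 41.0 and 18.8 CPM in SD rats and 112 to 209 CPM with a median of 133 in ZDSD rats. It was 0.82 ± 0.20 (SE) higher in ZDSD rats on the log2 scale, with an adjusted p of 0.00189 in edgeR. In both, rats 356 and 357 were the lowest of all rats and rat 353 was at the level of ZDSD rats.

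Outside the filter, 2 genes that were again chosen after their values were seen had most of their reads in SD rats. ENSRNOG00000029386, on the plus strand from 5245094 to 5248485, had 384, 54, 397, 449, 905 and 3 counts in SD rats 352 to 357. Over the 23 ZDSD rats it had 6 counts in all and at most 1 in a rat. Its counts in SD and ZDSD rats thus did not overlap, although the lowest SD rat had only 3. ENSRNOG00000048140, on the minus strand from 4576104 to 4576522, had 59, 5, 64, 57, 93 and 9 counts in SD rats, and 66 counts over 23 ZDSD rats with at most 8 in a rat. SD rats 353 and 357 were low in both genes, and rat 356 had the most counts in both. In ENSRNOG00000048140, SD rat 353 lay inside the range of ZDSD counts and rat 357 just above it. Each had 10 or more counts in fewer than 6 libraries, so neither was among the 139. With no filter, the 139 members and the 78 below the filter were tested together. Of these, 37 were called in ZDSD vs SD, beside 13.7% of all genes tested in that way. Of the 78 members below the filter, 14 were called, beside 6.98% of all genes below it, with 4 higher (1.77% of those genes) and 10 lower (5.21%). This difference was not tested.

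SHAM vs SD, which sets sham-operated ZDSD rats against SD rats, called 28 of the 139 members (20.1%), beside 18.6% of all genes. Of the 28, 20 were higher in SHAM rats (10.5% of all genes) and 8 were lower (8.06%). SHAM and SD rats did not overlap in 15 members, beside 8.56% of all genes. The SHAM rats are also part of the ZDSD group above, so the calls of these comparisons share rats, and 20 members were called in both. The share of all genes called in both was not computed.

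ENSRNOG00000000485, on the minus strand from 7675062 to 7683674, was highest in SHAM rats and lower in the treated groups. Its lowest, median and highest CPM were 11.3, 13.3 and 16.7 for SD rats and 17.2, 21.6 and 24.7 for SHAM rats. They were 14, 16.5 and 18.5 after RYGB and 12.3, 13.9 and 16.8 after RYGB-FMRR. It was 0.63 ± 0.09 (SE) higher in SHAM than in SD rats (adjusted p 1.04e-05, edgeR) and 0.57 lower in RYGB-FMRR than in SHAM rats (log2 fold change -0.57 ± 0.09 SE, adjusted p 2.33e-05, edgeR). All SHAM rats lay above all SD rats and above all RYGB-FMRR rats. RYGB vs SHAM gave a log2 fold change of -0.36 with an adjusted p of 0.00422 in edgeR, under the fold threshold, and RYGB-FMRR vs RYGB gave -0.21 with an adjusted p of 0.105.

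ENSRNOG00000048987, on the minus strand from 5701903 to 5702628, was also highest in SHAM and lowest in SD rats, at a lower level. It ran from 0.872 through a median of 1.12 to 1.49 CPM in SD rats, from 1.83 through 2.28 to 3.27 in SHAM, from 1.21 through 1.46 to 1.83 in RYGB and from 1.19 through 1.6 to 2.24 in RYGB-FMRR rats. In edgeR the log2 fold change was 0.99 ± 0.16 (SE) in SHAM vs SD (adjusted p 3.28e-05), -0.63 ± 0.14 in RYGB vs SHAM (adjusted p 0.0038) and -0.52 ± 0.15 in RYGB-FMRR vs SHAM (adjusted p 0.0129). It was the 1 member whose SHAM and RYGB rats did not overlap, beside 1.26% of all genes. The lower members of SHAM vs SD with the smallest adjusted p were the pair already described, with log2 fold changes of -2.12 ± 0.26 (SE) in ENSRNOG00000031607 and -0.57 ± 0.08 (SE) in ENSRNOG00000000473 (adjusted p 6.31e-07 and 2.19e-06, edgeR).

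RYGB vs SHAM called 8 of the 139 members (5.76%), beside 5.36% of all genes, with 2 higher (1.55% of all genes) and 6 lower (3.81%) in RYGB rats. RYGB-FMRR vs SHAM also called 8 (5.76%), beside 12.1% of all genes, with 1 higher (4.46% of all genes) and 7 lower (7.61%). RYGB-FMRR vs RYGB called 3 (2.16%), beside 4.53% of all genes, with 0 higher (2.69% of all genes) and 3 lower (1.84%). Compared with SHAM rats, the share called in RYGB-FMRR rats was thus under that of all genes, and this difference was not tested. Without SHAM rat 311, RYGB vs SHAM called 3 members, 2 higher and 1 lower, and RYGB-FMRR vs SHAM called 5, 1 higher and 4 lower. The share of all genes called without this rat was not computed, so the drop cannot be read as particular to the members. The comparisons with SHAM share the 7 SHAM rats. With only the compared groups in the model, RYGB vs SHAM called 4 members, beside 4.72% of all genes. Over the 5 comparisons, 37 members were called at least once and 102 in none. The same shares over all genes were not computed.

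ENSRNOG00000028505, on the plus strand from 7500487 to 7504165, was higher after bypass with medication. It ran from 5.44 through 6.68 to 7.23 CPM in SD rats, from 5.20 through 5.74 to 8.21 in SHAM, from 6.12 through 7.78 to 10.3 in RYGB and from 8.23 through 9.41 to 12.4 in RYGB-FMRR rats. RYGB-FMRR vs SHAM gave a log2 fold change of 0.74 ± 0.11 (SE) with an adjusted p of 2.28e-05 in edgeR, and the highest SHAM rat was just under the lowest RYGB-FMRR rat. RYGB vs SHAM gave 0.39 ± 0.11 (SE) with an adjusted p of 0.0173 in edgeR, and there 6 rats, when left out 1 at a time, each took the value under the fold threshold (0.33 to 0.37). RYGB-FMRR vs RYGB gave 0.35 with an adjusted p of 0.0286 in edgeR, short of the fold threshold.

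**Figure D5:**
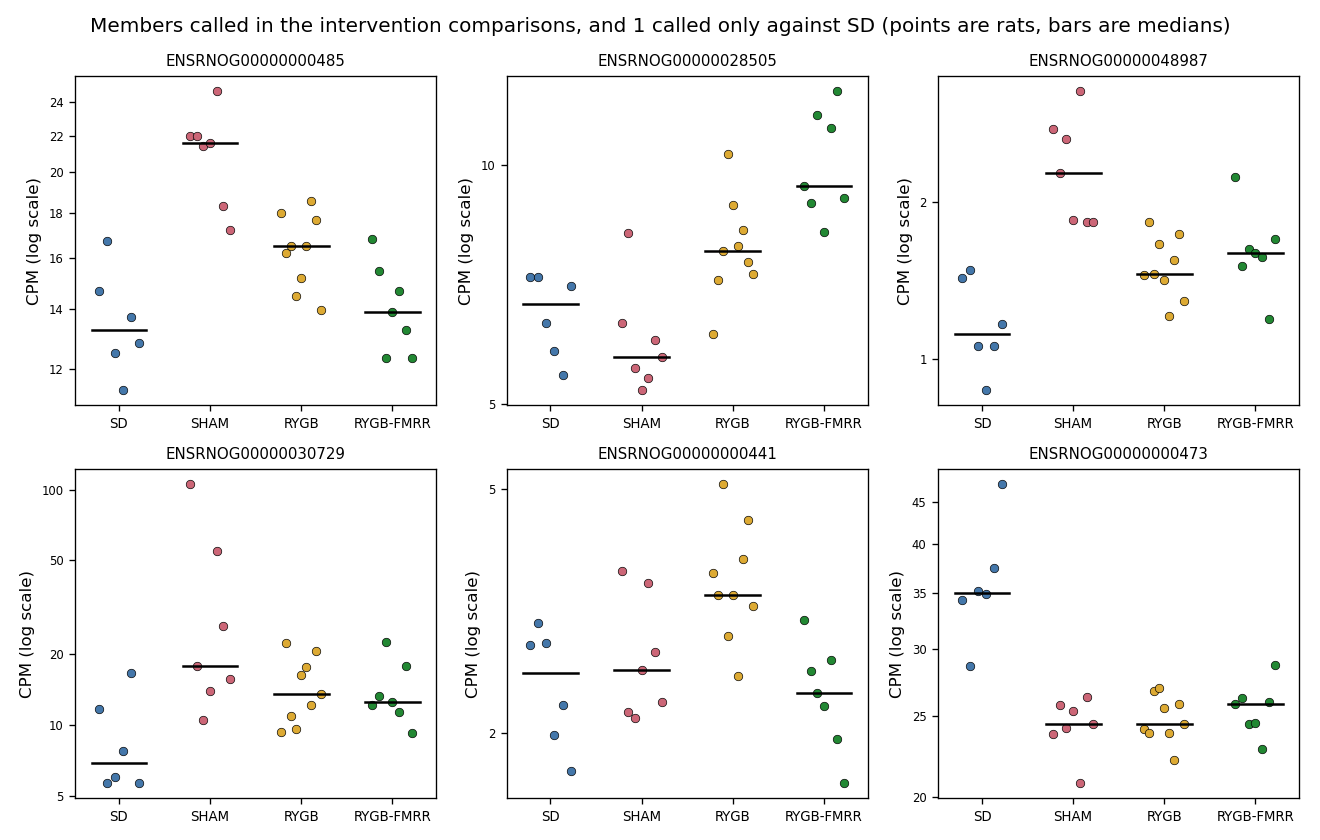
CPM (log scale) of 6 members in each rat, by group, with points for rats and bars for group medians. SHAM rats are the highest group in ENSRNOG00000000485 and ENSRNOG00000048987, RYGB-FMRR rats are the highest in ENSRNOG00000028505, and 2 SHAM rats carry the high end of ENSRNOG00000030729.

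Several calls against SHAM changed when a single rat was left out. ENSRNOG00000030729, on the minus strand from 6381703 to 6396071, ran from 5.65 through 6.88 to 16.7 CPM in SD rats, from 10.5 through 17.8 to 106 in SHAM, from 9.34 through 13.5 to 22.2 in RYGB and from 9.22 through 12.5 to 22.5 in RYGB-FMRR rats. SHAM rats 311 and 333 had 106 and 54.6 CPM, rat 334 had 26.4 CPM, just above every treated rat, and the other 4 SHAM rats lay among the treated rats. The log2 fold change was -1.25 ± 0.36 (SE) in RYGB vs SHAM and -1.31 ± 0.39 (SE) in RYGB-FMRR vs SHAM (adjusted p 0.0211 and 0.0156, edgeR). Without SHAM rat 311 these were -0.65 and -0.71, and neither was called (adjusted p 0.176 and 0.126, edgeR). SHAM vs SD gave 1.98 ± 0.42 (SE) with an adjusted p of 0.000748 in edgeR, and 1.37 with an adjusted p of 0.00313 without rat 311.

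ENSRNOG00000050215, on the minus strand from 5793665 to 5795200, reached 10 counts in only 6 libraries, those of SHAM rats and of RYGB rat 338. The gene thus passed the filter mainly through the group where it was highest, so its calls against SHAM are not independent of the filter. It had 0.0849 to 0.289 CPM in SD rats, 0.118 to 3.15 in SHAM, 0.0910 to 1.21 in RYGB and 0.0459 to 0.346 in RYGB-FMRR rats, with medians of 0.136, 0.642, 0.142 and 0.122. RYGB-FMRR vs SHAM gave a log2 fold change of -2.77 ± 0.62 (SE) with an adjusted p of 0.00171 in edgeR, and stayed called without SHAM rat 311 or 333 (-2.66 and -2.15). RYGB vs SHAM gave -1.73 with an adjusted p of 0.0266 in edgeR, which was lost without SHAM rat 311 at a similar size (-1.62, adjusted p 0.0605) and without rat 333 (-1.11, adjusted p 0.122). In ENSRNOG00000000428, on the minus strand from 6565575 to 6568637, RYGB rat 338 had 13.7 CPM and the next RYGB rat 1.46, while SHAM rats had 0.0599 to 1.66 with a median of 0.435. Its RYGB vs SHAM log2 fold change of 2.02 ± 0.68 (SE) had an adjusted p of 0.0476 in edgeR, and without rat 338 it was 0.63 with an adjusted p of 0.374. The call was lost in 20 of the 29 fits without 1 rat, those without an SD rat included, and apart from that of rat 338 these kept log2 fold changes of at least 1.84.

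All 3 members called in RYGB-FMRR vs RYGB were lower with medication. ENSRNOG00000000441, on the plus strand from 6434602 to 6436463, ran from 2.48 through 3.36 to 5.10 CPM in RYGB and from 1.65 through 2.32 to 3.05 in RYGB-FMRR rats (log2 fold change -0.62 ± 0.16 SE, adjusted p 0.0104, edgeR). SD and SHAM rats had medians of 2.50 and 2.53 CPM, nearer to the RYGB-FMRR rats. ENSRNOG00000026936, on the minus strand from 7127585 to 7129404, had medians of 0.273 CPM in RYGB and 0.0923 CPM in RYGB-FMRR rats, and passed the filter through SD rats alone, whose median was 0.669 CPM. Its log2 fold change was -1.16 ± 0.34 (SE) with an adjusted p of 0.0267 in edgeR, and without RYGB rat 344 or RYGB-FMRR rat 312, 323 or 336 the log2 fold change stayed between -1.08 and -1.03 while the adjusted p passed the threshold (0.0554 to 0.0585). The third, ENSRNOG00000000483, on the plus strand from 7594614 to 7623865, was named after its values were seen. It ran from 16.2 through 20.9 to 24.9 CPM in RYGB and from 13.0 through 14.2 to 19.6 in RYGB-FMRR rats, with a log2 fold change of -0.40 ± 0.12 (SE) and an adjusted p of 0.0322 in edgeR.

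Without the fold threshold, by the adjusted p of edgeR alone, more members passed and the shares again lay near or under the background. They numbered 54 of 139 in ZDSD vs SD (40.3% of all genes) and 44 in SHAM vs SD (35% of all genes). In RYGB vs SHAM 13 passed (13.1%), in RYGB-FMRR vs SHAM 18 (21.8%) and in RYGB-FMRR vs RYGB 9 (11.4%).

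Non-overlap of whole groups was rare in the intervention comparisons. RYGB-FMRR and SHAM rats did not overlap in 3 members, beside 5.84% of all genes. They were ENSRNOG00000000485, ENSRNOG00000028505 and ENSRNOG00000000848, the last with a log2 fold change of only 0.22 (adjusted p 0.0021, edgeR), under the fold threshold. RYGB-FMRR and RYGB rats did not overlap in ENSRNOG00000000842 alone, beside 2.4% of all genes, at 35.3 to 45.4 against 46.3 to 60.4 CPM and a log2 fold change of -0.34 (adjusted p 0.000598, edgeR) that was also under the fold threshold.

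SHAM rat 311 was the highest SHAM rat in a run of neighbouring members that none of the 5 comparisons called, chosen after their values were seen. In ENSRNOG00000032708 (6123272 to 6128912, plus strand), ENSRNOG00000000451 (6146271 to 6150864, minus), ENSRNOG00000033215 (6167759 to 6177326, plus) and ENSRNOG00000032844 (6207784 to 6212754, minus) it had 111, 103, 112 and 124 CPM. The next SHAM rat had 72.6, 63.4, 65.0 and 79.0 CPM. In the SD group, rat 357 was the lowest in all 4, at 22.6, 29.1, 24.4 and 53.3 CPM. ZDSD vs SD gave adjusted p of 0.511, 0.375, 0.808 and 0.063 in edgeR, and the last of these members, ENSRNOG00000032844, was called without SHAM rat 311 (log2 fold change -0.47, adjusted p 0.00494), SD rat 357 (-0.48, adjusted p 0.0299) or RYGB rat 350 (-0.41, adjusted p 0.0428). ENSRNOG00000033215 was called in RYGB-FMRR vs RYGB with only the compared groups in the model (0.41, adjusted p 0.0215, edgeR).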

How the data were processed

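Renal cortex of SD rats and of 3 ZDSD groups (SHAM, RYGB, RYGB-FMRR) was analysed by RNA sequencing, with groups taken from the labels. The deposited values are raw counts per Ensembl gene, which the authors obtained with featureCounts 1.6.4 per the file headers. Read pairs were counted over exons of rn5 with the reverse-stranded setting, for genes of both strands. That command did not ask for reads mapping to several places or overlapping several genes, so members that share sequence with a near-identical copy are uncertain. Trim Galore, FastQC, STAR and DESeq2 are named in the submitters' processing notes. Counts had not been normalized. An RYGB-FMRR rat listed in the labels was not analysed here, and 2 SHAM libraries with totals under 1000000 were left out.

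From the counts, TMM scaling and the quasi-likelihood test of edgeR 4.0.16 in R 4.3.3 were run on all 4 groups in 1 model without covariates, for 14819 genes with at least 10 counts in 6 libraries. The thresholds for fold change (1.3) and Benjamini-Hochberg adjusted p (0.05) are the study's, which used the DESeq2 Wald test. Standard errors were derived from the log2 fold change and the test's F statistic. CPM used TMM-scaled library sizes, except for the spread within groups and the distance of each rat from its group, which used total counts. Before logarithms, 0.1 was added. The edgeR fit was first tested on simulated data. No 2 libraries were identical. In the main fit, each p-value sets a difference between groups against the spread between rats, estimated over all 4 groups.

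Alternatives were the Wald test of DESeq2 1.42.0, its size factors in edgeR, filterByExpr, no filter, all 31 libraries, the adjusted p alone, only the compared groups, and leaving out each rat. For single genes, the last pair of these was chosen after seeing the data. The members and lists were chosen with earlier results of these data known. Genes were named by the smallest adjusted p among called members, up to 2 per direction and comparison. Identifiers could not be paired with symbols, so the gene lists, cell type markers and sequences that had been intended were not used here.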

Additional observations from a re-analysis of the deposited data

Results flagged for a closer look

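In 10 of 92 groups of rats, taken over 23 named members, 1 rat lay so far from the nearest of its group that the gap passed Dixon's 95% critical value, which chance passes in about 1 group in 20. Part of these members were named because single rats lay far off in them, and neighbouring genes of 1 rat are not independent, so 10 of 92 cannot be read against that rate. Among SD rats, rat 357 was low in ENSRNOG00000032596 (0.255 CPM, next 2.62), and rat 356 was low in ENSRNOG00000026051 (0.241 CPM, next 2.81) and in ENSRNOG00000047706 (14.6 CPM, next 56.2). SHAM rat 333 was high in ENSRNOG00000000470 (121 CPM, next 105) and low in ENSRNOG00000000473 (20.8 CPM, next 23.8). SHAM rat 315 was high in ENSRNOG00000028505 (8.21 CPM, next 6.33) and ENSRNOG00000026936 (0.419 CPM, next 0.194), and SHAM rat 311 was high in ENSRNOG00000038999 (209 CPM, next 154). RYGB rat 338 was high in ENSRNOG00000000428 (13.7 CPM, next 1.46) and ENSRNOG00000050215 (1.21 CPM, next 0.288).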

How the results depend on the processing

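Most calls kept their side of the threshold. Of 277 called values of named genes under an alternative other than leaving out a rat, 269 stayed called and 8 did not, and 0 reversed. ENSRNOG00000000428 in RYGB vs SHAM was not called by the DESeq2 Wald test (log2 fold change 0.62, adjusted p 0.346). With only the compared groups in the model, folds barely moved but ENSRNOG00000030729 was not called in RYGB vs SHAM (log2 fold change -1.26, adjusted p 0.0604, edgeR) or RYGB-FMRR vs SHAM (-1.32, adjusted p 0.0581), nor ENSRNOG00000047706 in SHAM vs SD (0.83, adjusted p 0.051).

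Members called in ZDSD vs SD numbered 23 of 139, beside 17.3% of all genes. With no filter they numbered 37, members below the filter included, beside 13.7% of all genes. By the adjusted p alone they numbered 54 of 139, beside 40.3%. The adjusted p alone drops the fold threshold and gave 44 members in SHAM vs SD (35% of all genes) and 13 in RYGB vs SHAM (13.1%). It gave 18 in RYGB-FMRR vs SHAM (21.8%) and 9 in RYGB-FMRR vs RYGB (11.4%). RYGB vs SHAM gave 4 with only the compared groups (4.72% of all genes). Leaving out each rat gave 22 to 27 in ZDSD vs SD, 26 to 35 in SHAM vs SD, 3 to 10 in RYGB vs SHAM, 5 to 12 in RYGB-FMRR vs SHAM and 1 to 5 in RYGB-FMRR vs RYGB. The shares of all genes called in these fits were not computed. The lowest count came without SHAM rat 311 for RYGB vs SHAM (3, of which 2 higher) and RYGB-FMRR vs SHAM (5), and RYGB vs SHAM gave 5 without SHAM rat 333. RYGB-FMRR vs RYGB gave 1 without RYGB rat 344 or RYGB-FMRR rat 312 or 336, and 5 without RYGB rat 330 or 337. The cause was not tested. No paired analysis was possible because every rat is in 1 group and the labels number rats, not pairs.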
